A study of Mus musculus with 12 samples.

Results

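Cholesterol synthesis, transport and regulation were followed through 45 genes: enzymes of the mevalonate and sterol steps, the regulators of the SREBP transcription factors, genes of sterol uptake, efflux and turnover, and SREBP targets of fatty acid synthesis. Members were taken by gene symbol in the platform table, with the brightest probe set per gene, and 40 of the 45 had a probe set with that 1 symbol among the 19248 genes tested. Acat2, Hmgcs1, Soat1, Nr1h2 and Mbtps2 were not analysed here. RNA of 12 striata from mice aged 8 weeks was measured on whole-transcript arrays, giving log2 expression values. The striatum is the brain region hit hardest in Huntington's disease (HD). There were 3 mice in each of 4 groups, namely HD transgenics lacking p62 (HD_p62KO), HD transgenics with wild-type p62 (HD_p62WT), transgene-free mice lacking p62 (NT_p62KO) and transgene-free mice with wild-type p62 (NT_p62WT). p62, the product of Sqstm1, is an autophagy receptor for ubiquitinated cargo, and the cross asked how its loss changes the transcriptome of the HD model. The labels name neither the HD line nor the promoter of its transgene, which limits what can be said of the model.

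The brain makes nearly all of its own cholesterol, because lipoproteins of the blood do not cross the blood-brain barrier. When sterol in the endoplasmic reticulum is low, SCAP carries SREBP to the Golgi, where proteases release the part that enters the nucleus and switches on synthesis genes, and when sterol is high, INSIG proteins hold SCAP back. Astrocytes export cholesterol through ABC transporters onto APOE particles, and neurons remove the excess by turning it into a hydroxylated form with CYP46A1. Lower brain cholesterol synthesis has been described in HD mouse models.

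Sqstm1 served as the check of the labels. Its log2 values were 8.92, 9.13 and 9.02 in HD_p62KO mice and 11.75, 11.26 and 11.51 in HD_p62WT mice, against 8.44, 8.52 and 8.49 in NT_p62KO mice and 11.19, 11.35 and 11.24 in NT_p62WT mice. Both groups of knockouts lay below both groups with normal p62. p62 loss changed it by -2.48 ± 0.11 (SE) in HD mice and -2.78 ± 0.11 in non-transgenic mice. Array medians lay between 7.70 and 7.73, and arrays of a group correlated at 0.988 to 0.995. With 3 arrays a group, precision is limited by their number. The defining neurons of the striatum were represented: their markers Drd2 and Ppp1r1b ran from 10.59 to 11.50 and from 10.44 to 11.48 over the 12 mice.

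The HD effect was measured in mice without p62 (HD_p62KO minus NT_p62KO), in mice with p62 (HD_p62WT minus NT_p62WT) and as the mean of both, which uses all 12 mice. All differences are on the log2 scale, and adjusted p-values are from limma with Benjamini-Hochberg adjustment over the 19248 genes, with a threshold of 0.05. For the mean HD effect 17 of the 40 measured members fell, 3 rose and 20 did not pass. Over all genes 35% were called, 15% as lower and 19.9% as higher. Counts of role groups and marker lists given below for this comparison are to be read beside these shares. The members' median difference was -0.16, against -0.02 over all genes. Of the 40, 12 did not overlap between the 6 HD and the 6 non-transgenic mice, which was so for 16.2% of all genes. Leaving out any 1 mouse left 16 to 22 members called. In bulk tissue fewer cells of a type and less RNA per cell cannot be told apart, and in the same comparison 13 of 14 projection neuron markers, 5 of 14 astrocyte markers and 6 of 13 oligodendrocyte markers fell.

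**Figure D1:**
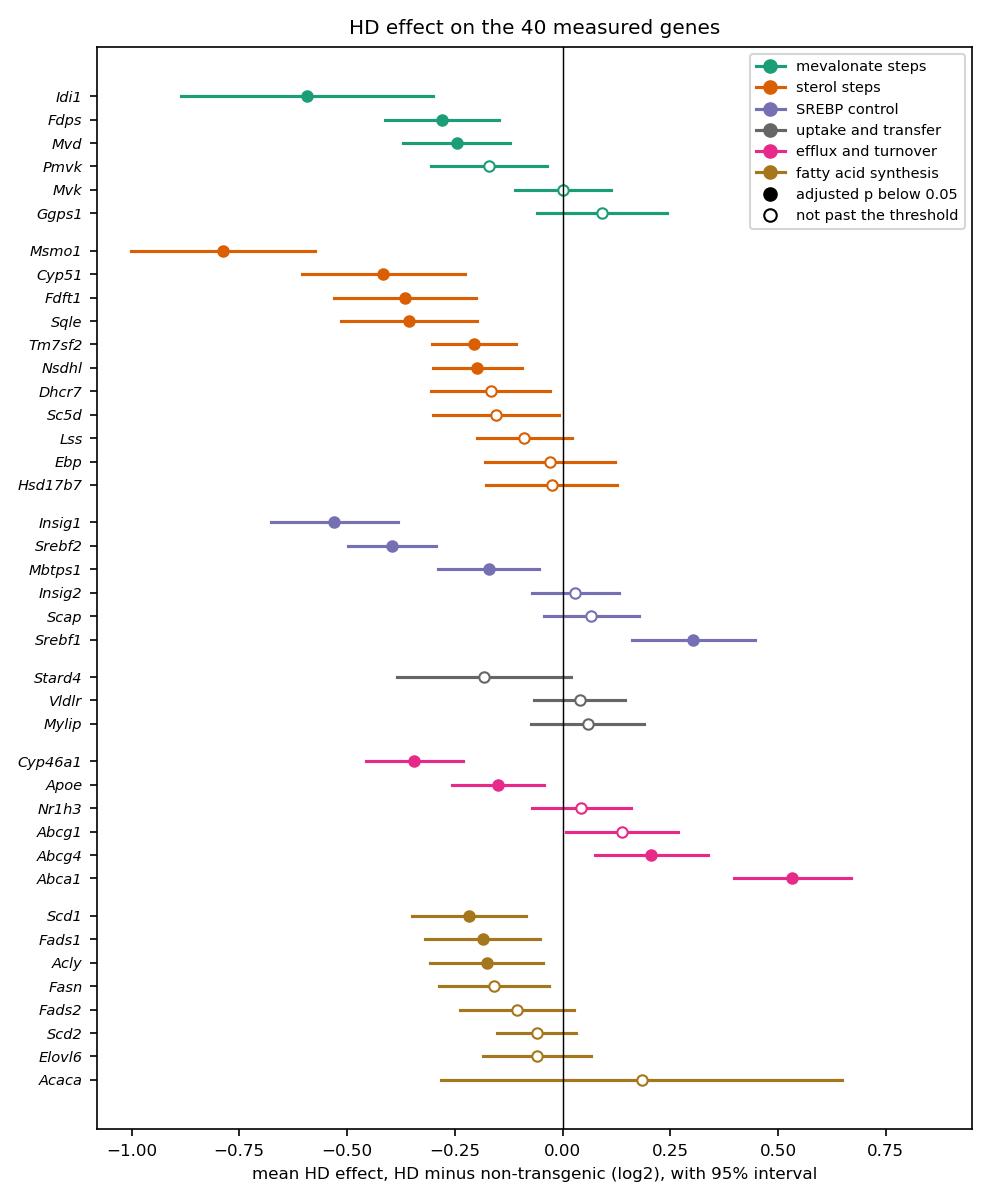
Mean HD effect (HD minus non-transgenic, log2) with its 95% interval for the 40 measured genes in 6 role groups, where filled points passed an adjusted p of 0.05. Points of the sterol steps all lie below 0, from -0.79 for Msmo1 to -0.03 for Hsd17b7, and Abca1, at 0.53, lies highest.

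Of the 6 mevalonate enzymes measured, 3 fell with HD and 3 did not pass. Idi1, which isomerises isopentenyl diphosphate, had log2 values of 7.52, 7.71 and 7.94 in HD_p62KO mice and 8.00, 7.17 and 7.74 in HD_p62WT mice, against 8.38, 8.38 and 8.02 in NT_p62KO mice and 8.08, 8.35 and 8.43 in NT_p62WT mice. The 6 HD mice lay below the 6 non-transgenic mice, with HD_p62WT replicate 2 the lowest, the highest HD mouse at 8.00 and the lowest non-transgenic mouse at 8.02. Idi1 fell by 0.59 (SE 0.13, 1.51-fold lower, adjusted p = 0.00632), and its second probe set, in a fit of all probe sets, differed by -0.51 ± 0.12 (SE; adjusted p = 0.0075). Fdps, which makes farnesyl diphosphate, had values of 9.74, 9.77 and 9.92 in HD_p62KO mice and 9.97, 9.85 and 9.92 in HD_p62WT mice, against 10.21, 10.14 and 9.98 in NT_p62KO mice and 10.07, 10.15 and 10.30 in NT_p62WT mice. HD and non-transgenic mice did not overlap, the nearest being at 9.97 and 9.98, and Fdps fell by 0.28 (SE 0.061, 1.21-fold lower, adjusted p = 0.00503). Mvd, the mevalonate diphosphate decarboxylase, had values of 8.19, 8.01 and 8.10 in HD_p62KO mice and 8.00, 8.12 and 8.06 in HD_p62WT mice, against 8.31, 8.33 and 8.38 in NT_p62KO mice and 8.21, 8.26 and 8.48 in NT_p62WT mice. The highest HD mouse was at 8.19 and the lowest non-transgenic mouse at 8.21, and Mvd fell by 0.25 (SE 0.057, adjusted p = 0.00703), though not with each array's standard deviation (SD) over all genes as a covariate (adjusted p = 0.105).

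The mevalonate enzymes that did not pass were the kinases Mvk and Pmvk and the geranylgeranyl diphosphate synthase Ggps1, which leads away from sterols. Ggps1 had values of 10.32, 10.50 and 10.36 in HD_p62KO mice and 10.18, 10.35 and 10.54 in HD_p62WT mice, against 10.35, 10.27 and 10.22 in NT_p62KO mice and 10.14, 10.33 and 10.39 in NT_p62WT mice, and its groups overlapped widely (0.09 ± 0.069, SE; adjusted p = 0.311). Mvk differed by 0.0011 ± 0.051 (SE), with a 95% interval of -0.11 to 0.11. Pmvk differed by -0.17 ± 0.062 (adjusted p = 0.0501).

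Of the 11 enzymes from squalene to cholesterol, 6 fell with HD, 0 rose and 5 did not pass, and all 11 had a negative difference. Msmo1, the sterol methyl oxidase that removes methyl groups from lanosterol derivatives, had values of 8.91, 9.13 and 9.24 in HD_p62KO mice and 9.15, 8.63 and 9.14 in HD_p62WT mice, against 9.87, 9.98 and 9.72 in NT_p62KO mice and 9.68, 9.74 and 9.94 in NT_p62WT mice. Each HD mouse was at or below 9.24 and each non-transgenic mouse at or above 9.68. Msmo1 fell by 0.79 (SE 0.098, 1.73-fold lower, adjusted p = 2.61e-04), the largest change among the 40 genes. Cyp51, the lanosterol demethylase of an earlier step, had values of 7.81, 7.91 and 8.11 in HD_p62KO mice and 8.05, 7.80 and 8.03 in HD_p62WT mice, against 8.42, 8.50 and 8.34 in NT_p62KO mice and 8.03, 8.49 and 8.41 in NT_p62WT mice. NT_p62WT replicate 1, at 8.03, lay within the HD range, and the other non-transgenic mice lay above it. Cyp51 fell by 0.42 (SE 0.087, 1.33-fold lower, adjusted p = 0.00414).

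Squalene is made by Fdft1 and oxidised by Sqle, both early steps of the sterol branch. Fdft1 had values of 9.94, 10.03 and 10.10 in HD_p62KO mice and 10.09, 9.73 and 9.91 in HD_p62WT mice, against 10.30, 10.41 and 10.12 in NT_p62KO mice and 10.24, 10.39 and 10.52 in NT_p62WT mice. The HD_p62WT mice included the lowest value, in replicate 2. Sqle had values of 8.69, 8.84 and 9.03 in HD_p62KO mice and 8.85, 8.53 and 8.74 in HD_p62WT mice, against 9.13, 9.24 and 9.03 in NT_p62KO mice and 9.10, 9.21 and 9.12 in NT_p62WT mice. HD and non-transgenic mice did not overlap for either gene, although for Sqle the highest HD mouse and the lowest non-transgenic mouse both round to 9.03. Fdft1 fell by 0.37 (SE 0.076, adjusted p = 0.00404), with -0.29 ± 0.075 (SE; adjusted p = 0.0119) at its second probe set, and Sqle fell by 0.36 (SE 0.072, adjusted p = 0.00355).

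Smaller decreases were seen for Tm7sf2, a sterol reductase, and Nsdhl, which works with Msmo1 in demethylation. Tm7sf2 had values of 7.83, 7.87 and 7.74 in HD_p62KO mice and 7.85, 7.82 and 7.84 in HD_p62WT mice, against 7.92, 7.99 and 8.07 in NT_p62KO mice and 8.05, 8.10 and 8.08 in NT_p62WT mice. Its groups were apart, with all HD mice at or below 7.87, and it fell by 0.21 (SE 0.045, adjusted p = 0.00517). Nsdhl had values of 9.45, 9.36 and 9.37 in HD_p62KO mice and 9.26, 9.19 and 9.05 in HD_p62WT mice, against 9.46, 9.49 and 9.43 in NT_p62KO mice and 9.52, 9.49 and 9.48 in NT_p62WT mice. The HD_p62WT mice were the lowest and the HD_p62KO mice overlapped the non-transgenic ones. Nsdhl fell by 0.20 (SE 0.048, adjusted p = 0.00835; adjusted p = 0.0541 with array SD as a covariate).

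The 5 sterol enzymes that did not pass were Dhcr7, Sc5d, Lss, Ebp and Hsd17b7. The final reductase Dhcr7 differed by -0.17 ± 0.063 (SE; adjusted p = 0.0577). The desaturase Sc5d had values of 9.86, 10.04 and 10.10 in HD_p62KO mice and 9.96, 9.75 and 10.04 in HD_p62WT mice, against 10.16, 10.06 and 10.01 in NT_p62KO mice and 10.04, 10.25 and 10.15 in NT_p62WT mice, which overlapped (-0.15 ± 0.067, SE; adjusted p = 0.0919). Lanosterol synthase, Lss, differed by -0.09 ± 0.050 with a 95% interval of -0.20 to 0.02. Ebp and Hsd17b7 differed by -0.03 ± 0.069 and -0.03 ± 0.070, with intervals of -0.18 to 0.12 and -0.18 to 0.13. Of all 17 measured synthesis enzymes 9 fell, 0 rose and 8 did not pass, and their median was -0.20.

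**Figure D2:**
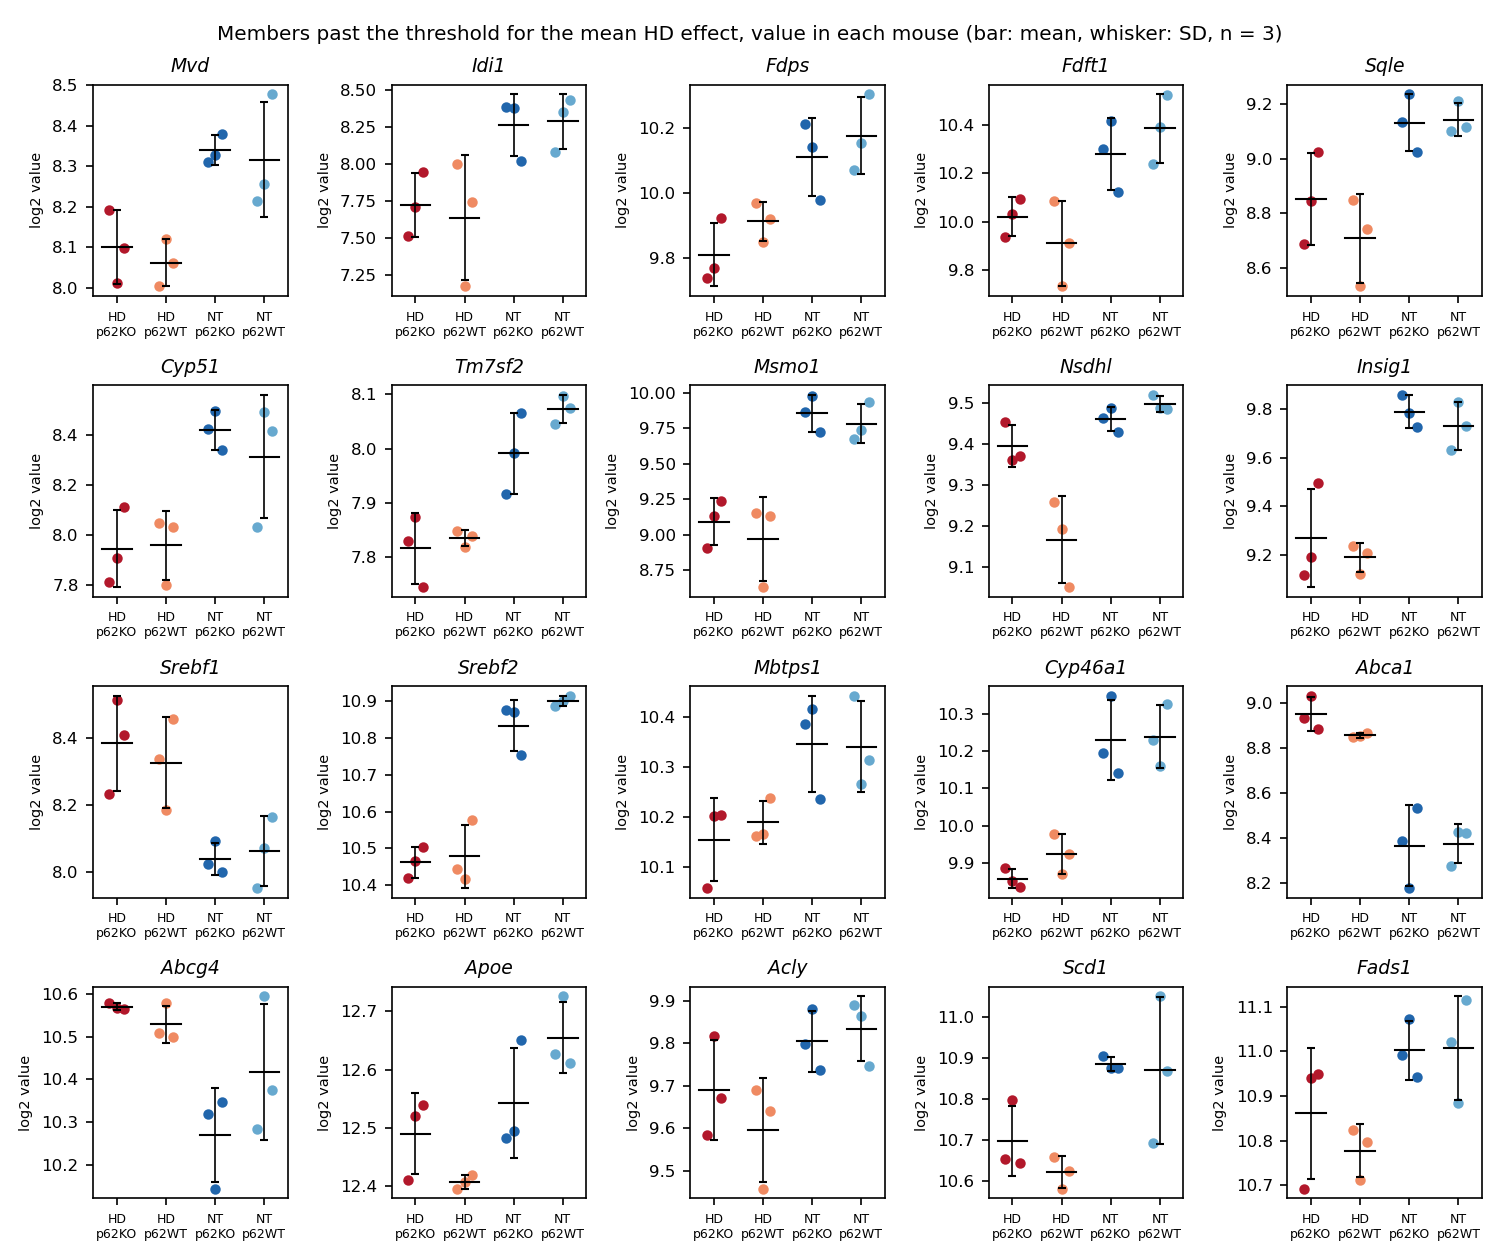
Log2 value in each of the 12 mice for the 20 members past the threshold in the mean HD effect, 1 panel per gene, with points for mice, a bar for the group mean and a whisker for the SD (n = 3). Both HD groups stand left and lie below both non-transgenic groups for Msmo1, Insig1, Srebf2 and Cyp46a1, and above them for Abca1 and Srebf1.

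The windows around the start sites of these genes are shown because 9 synthesis enzymes fell with HD and SREBP is known to act beside the factor NF-Y. RefSeq windows of 300 bases on GRCm38.p6, from 250 before to 50 after the annotated start, were found for 31 of the 40 measured members. The 5 letters CCAAT, which NF-Y binds, were searched on both strands. They occurred in all 14 synthesis enzymes with a window and in 23 of the 31 measured members with a window (74.2%). Of the 12 members with a window that fell, 10 held them (83.3%). No window was found for the other members that fell, the synthesis enzymes Fdps, Fdft1 and Sqle and the desaturases Scd1 and Fads1. A gene with several windows was counted once, if any held a match. Over the 15157 tested genes with a window the share was 41.7%. The letters CACNCCA, taken from the sterol regulatory element and searched on both strands, occurred in 4 of those 12 (33.3%) and in 1 of the 14 synthesis enzymes (7.14%), against 20.4% of all. CCAAT was present both in enzymes that fell and in enzymes that did not pass: Mvk held 5 copies and did not pass, while Msmo1 held 3, Idi1 2 and Cyp51 1. Of the 2 members with a window that rose, Srebf1 held CCAAT and Abca1 held neither. Capitals below mark CCAAT and CACNCCA on either strand, in the strongest decreases, in Mvk and in Abca1. Sequences run 5′ to 3′ on the strand of the gene.
Msmo1 (- strand, chr8:64733529-64733828): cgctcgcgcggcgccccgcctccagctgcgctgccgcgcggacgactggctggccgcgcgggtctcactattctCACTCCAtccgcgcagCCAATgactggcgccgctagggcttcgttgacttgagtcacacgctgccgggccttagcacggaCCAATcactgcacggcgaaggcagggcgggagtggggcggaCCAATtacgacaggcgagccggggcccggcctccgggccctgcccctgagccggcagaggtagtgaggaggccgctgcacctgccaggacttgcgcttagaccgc
Idi1 (+ strand, chr13:8885356-8885655): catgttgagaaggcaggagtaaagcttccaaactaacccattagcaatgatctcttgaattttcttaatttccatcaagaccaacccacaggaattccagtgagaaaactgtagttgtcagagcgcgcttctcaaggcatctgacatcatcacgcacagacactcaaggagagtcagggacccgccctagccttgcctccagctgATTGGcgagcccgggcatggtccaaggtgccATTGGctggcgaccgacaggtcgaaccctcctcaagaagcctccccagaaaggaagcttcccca
Cyp51 (- strand, chr5:4104648-4104947): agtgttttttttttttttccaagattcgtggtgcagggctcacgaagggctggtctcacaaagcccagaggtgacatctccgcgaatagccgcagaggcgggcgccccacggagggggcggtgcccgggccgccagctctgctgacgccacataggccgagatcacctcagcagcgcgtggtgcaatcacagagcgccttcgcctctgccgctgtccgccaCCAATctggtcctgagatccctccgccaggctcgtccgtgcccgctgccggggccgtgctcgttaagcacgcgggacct
Insig1 (+ strand, chr5:28071162-28071461): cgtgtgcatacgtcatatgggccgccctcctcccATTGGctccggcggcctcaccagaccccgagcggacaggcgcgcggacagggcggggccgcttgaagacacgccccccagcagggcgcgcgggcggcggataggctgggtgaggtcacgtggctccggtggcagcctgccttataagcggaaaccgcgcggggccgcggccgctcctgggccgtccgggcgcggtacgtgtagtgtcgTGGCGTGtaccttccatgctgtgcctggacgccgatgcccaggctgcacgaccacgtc
Srebf2 (+ strand, chr15:82147019-82147318): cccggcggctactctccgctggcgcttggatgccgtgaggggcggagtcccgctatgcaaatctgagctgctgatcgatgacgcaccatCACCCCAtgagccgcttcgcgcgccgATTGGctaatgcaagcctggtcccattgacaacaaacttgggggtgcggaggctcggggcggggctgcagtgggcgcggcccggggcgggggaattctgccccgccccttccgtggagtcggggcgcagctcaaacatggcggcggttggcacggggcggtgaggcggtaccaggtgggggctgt
Mvk (+ strand, chr5:114444019-114444318): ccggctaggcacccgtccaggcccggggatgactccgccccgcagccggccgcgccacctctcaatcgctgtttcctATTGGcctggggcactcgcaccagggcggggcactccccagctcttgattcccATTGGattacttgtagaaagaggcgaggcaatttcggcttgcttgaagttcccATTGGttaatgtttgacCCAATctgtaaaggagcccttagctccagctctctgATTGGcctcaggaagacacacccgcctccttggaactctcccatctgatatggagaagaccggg
Abca1 (- strand, chr4:53159846-53160145): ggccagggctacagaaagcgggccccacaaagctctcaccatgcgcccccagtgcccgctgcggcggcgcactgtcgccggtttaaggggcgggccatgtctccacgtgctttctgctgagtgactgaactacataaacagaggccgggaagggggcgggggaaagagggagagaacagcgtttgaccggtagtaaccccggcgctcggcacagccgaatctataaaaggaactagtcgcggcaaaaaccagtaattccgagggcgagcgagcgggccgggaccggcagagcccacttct

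The regulators of SREBP did not move as 1 block: of 6 measured, 3 fell, 1 rose and 2 did not pass. Srebf2, which encodes the SREBP that mainly drives cholesterol genes, had values of 10.42, 10.46 and 10.50 in HD_p62KO mice and 10.44, 10.42 and 10.58 in HD_p62WT mice, against 10.88, 10.87 and 10.75 in NT_p62KO mice and 10.89, 10.90 and 10.91 in NT_p62WT mice. No HD mouse was above 10.58 and no non-transgenic mouse below 10.75. Srebf2 fell by 0.40 (SE 0.047, 1.32-fold lower, adjusted p = 1.93e-04). Insig1, both a sterol-sensitive brake on SCAP and an SREBP target, had values of 9.12, 9.19 and 9.50 in HD_p62KO mice and 9.24, 9.12 and 9.21 in HD_p62WT mice, against 9.86, 9.78 and 9.73 in NT_p62KO mice and 9.63, 9.83 and 9.73 in NT_p62WT mice. HD mice reached at most 9.50 and non-transgenic mice were at least at 9.63, and Insig1 fell by 0.53 (SE 0.068, 1.44-fold lower, adjusted p = 2.92e-04). Its paralog Insig2 differed by 0.03 ± 0.046 (SE; 95% interval -0.07 to 0.13).

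Srebf1, which encodes the SREBP that mainly drives fatty acid genes, went the other way from Srebf2. Its values were 8.23, 8.51 and 8.41 in HD_p62KO mice and 8.34, 8.19 and 8.46 in HD_p62WT mice, against 8.03, 8.09 and 8.00 in NT_p62KO mice and 7.95, 8.07 and 8.16 in NT_p62WT mice. The HD mice started at 8.19 and the non-transgenic mice ended at 8.16. Srebf1 rose by 0.30 (SE 0.065, 1.23-fold higher, adjusted p = 0.00487), though not with array SD as a covariate (adjusted p = 0.0918). Mbtps1, the protease that makes the first cut in SREBP, had values of 10.06, 10.20 and 10.20 in HD_p62KO mice and 10.16, 10.17 and 10.24 in HD_p62WT mice, against 10.39, 10.41 and 10.23 in NT_p62KO mice and 10.44, 10.26 and 10.31 in NT_p62WT mice. NT_p62KO replicate 3 lay just below HD_p62WT replicate 3 and the other mice did not cross, and Mbtps1 fell by 0.17 (SE 0.054, adjusted p = 0.0281). It no longer passed without NT_p62KO replicate 1 or 2 or replicate 1 of any other group (adjusted p = 0.0527 to 0.0699). The escort Scap had values of 9.94, 10.14 and 10.07 in HD_p62KO mice and 10.09, 10.15 and 10.19 in HD_p62WT mice, against 9.94, 9.96 and 9.96 in NT_p62KO mice and 10.09, 10.21 and 10.03 in NT_p62WT mice. All NT_p62KO mice lay below all NT_p62WT mice, while HD and non-transgenic mice overlapped (0.07 ± 0.051, SE; adjusted p = 0.315).

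None of the 3 genes of uptake and transfer passed in limma for the mean HD effect. Nor had any an unadjusted p below 0.05, which 9020 of the 19248 genes had. Vldlr, a lipoprotein and reelin receptor, had values of 9.61, 9.76 and 9.76 in HD_p62KO mice and 9.67, 9.65 and 9.75 in HD_p62WT mice, against 9.63, 9.71 and 9.74 in NT_p62KO mice and 9.70, 9.60 and 9.58 in NT_p62WT mice, with all groups overlapping (0.04 ± 0.048, SE; 95% interval -0.07 to 0.15). Mylip, a ubiquitin ligase that marks lipoprotein receptors for degradation, differed by 0.06 ± 0.060 (interval -0.07 to 0.19). Stard4, a sterol transfer protein, differed by -0.18 ± 0.092 (interval -0.38 to 0.02).

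Among 6 genes of efflux and turnover, 2 rose, 2 fell and 2 did not pass. Abca1, which loads cholesterol onto lipid-poor apolipoproteins, had values of 8.93, 9.03 and 8.88 in HD_p62KO mice and 8.85, 8.85 and 8.86 in HD_p62WT mice, against 8.39, 8.18 and 8.53 in NT_p62KO mice and 8.27, 8.42 and 8.42 in NT_p62WT mice. Each HD mouse, at 8.85 or more, was above each non-transgenic mouse, at 8.53 or less. Abca1 rose by 0.53 (SE 0.063, 1.45-fold higher, adjusted p = 1.79e-04). Abcg4, a related transporter of neurons and glia, had values of 10.58, 10.57 and 10.56 in HD_p62KO mice and 10.51, 10.58 and 10.50 in HD_p62WT mice, against 10.32, 10.14 and 10.35 in NT_p62KO mice and 10.28, 10.59 and 10.37 in NT_p62WT mice. NT_p62WT replicate 2, at 10.59, was the highest of all mice, while the other 5 non-transgenic mice lay below every HD mouse. Abcg4 rose by 0.21 (SE 0.060, adjusted p = 0.0206), but not after quantile normalization (adjusted p = 0.0964), with array SD as a covariate (0.0545), without the 3 arrays of smallest SD (0.0669) or without NT_p62WT replicate 1 (0.0519). Abcg1 had values of 8.75, 9.08 and 8.86 in HD_p62KO mice and 8.87, 8.78 and 8.84 in HD_p62WT mice, against 8.70, 8.78 and 8.60 in NT_p62KO mice and 8.73, 8.78 and 8.75 in NT_p62WT mice, with HD_p62KO replicate 2 the highest, and did not pass (0.14 ± 0.060, SE; adjusted p = 0.0894).

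Cyp46a1, the neuronal enzyme of cholesterol removal, had values of 9.89, 9.85 and 9.84 in HD_p62KO mice and 9.98, 9.87 and 9.92 in HD_p62WT mice, against 10.20, 10.35 and 10.14 in NT_p62KO mice and 10.23, 10.16 and 10.33 in NT_p62WT mice. HD mice lay at 9.98 or less and non-transgenic mice at 10.14 or more. Cyp46a1 fell by 0.34 (SE 0.051, 1.27-fold lower, adjusted p = 7.34e-04). Apoe, the main brain apolipoprotein, had values of 12.41, 12.52 and 12.54 in HD_p62KO mice and 12.40, 12.41 and 12.42 in HD_p62WT mice, against 12.48, 12.49 and 12.65 in NT_p62KO mice and 12.63, 12.73 and 12.61 in NT_p62WT mice. The HD_p62WT mice, at 12.40 to 12.42, were lower than all but 1 other mouse, and the 2 knockout groups overlapped. Apoe fell by 0.15 (SE 0.049, adjusted p = 0.0329), a call lost without HD_p62KO replicate 1 or 2, HD_p62WT replicate 1 or 3, NT_p62KO replicate 3 or NT_p62WT replicate 1 or 2 (adjusted p = 0.0512 to 0.0716). The sterol receptor Nr1h3 (LXR alpha), which controls Abca1 and Abcg1, differed by 0.04 ± 0.053 (SE; 95% interval -0.07 to 0.16).

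Of 8 genes of fatty acid synthesis 3 fell, 0 rose and 5 did not pass for the mean HD effect. In limma 0 passed in either HD effect alone, where 21.7% of all genes passed without p62 and 7.1% with p62. At an unadjusted p below 0.05 there were 0 without p62 and 4 with p62, against 7465 and 4882 of the 19248 genes. The stearoyl-CoA desaturase Scd1 had values of 10.65, 10.80 and 10.65 in HD_p62KO mice and 10.66, 10.58 and 10.63 in HD_p62WT mice, against 10.91, 10.88 and 10.87 in NT_p62KO mice and 10.69, 11.05 and 10.87 in NT_p62WT mice. NT_p62WT replicate 1, at 10.69, was within the HD range. Scd1 fell by 0.22 (SE 0.061, adjusted p = 0.0172). The desaturase Fads1 had values of 10.69, 10.94 and 10.95 in HD_p62KO mice and 10.82, 10.71 and 10.80 in HD_p62WT mice, against 10.99, 11.07 and 10.94 in NT_p62KO mice and 11.02, 10.89 and 11.12 in NT_p62WT mice, with HD_p62KO replicate 1 the lowest. Acly, the citrate lyase that supplies acetyl-CoA to both pathways, had values of 9.58, 9.82 and 9.67 in HD_p62KO mice and 9.69, 9.46 and 9.64 in HD_p62WT mice, against 9.80, 9.88 and 9.74 in NT_p62KO mice and 9.89, 9.86 and 9.75 in NT_p62WT mice. HD and non-transgenic mice overlapped for both. Fads1 fell by 0.19 (SE 0.062, adjusted p = 0.0352) and Acly fell by 0.18 (SE 0.060, adjusted p = 0.0394).

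The calls of Fads1 and Acly were near the threshold, and each was lost with any of 8 of the 12 mice left out. Fads1 lost its call without HD_p62KO replicate 1, any HD_p62WT mouse, NT_p62KO replicate 1 or 2, or NT_p62WT replicate 1 or 3 (adjusted p = 0.0523 to 0.0858), with a difference of -0.20 to -0.14 in those fits. Acly lost its call without HD_p62KO replicate 1 or 3, HD_p62WT replicate 2 or 3, NT_p62KO replicate 1 or 2, or NT_p62WT replicate 1 or 2 (0.0586 to 0.0857), with a difference of -0.19 to -0.14. The desaturase Scd2 had values of 12.10, 12.19 and 12.12 in HD_p62KO mice and 12.14, 12.13 and 12.14 in HD_p62WT mice, against 12.16, 12.18 and 12.20 in NT_p62KO mice and 12.19, 12.29 and 12.17 in NT_p62WT mice. Its groups overlapped in part, and it differed by -0.06 ± 0.043 (SE; 95% interval -0.15 to 0.03). The synthase Fasn differed by -0.16 ± 0.059 (adjusted p = 0.053), Fads2 by -0.11 ± 0.061 and Elovl6 by -0.06 ± 0.058.

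In each p62 background alone 9 members passed, where 21.7% of all genes passed without p62 and 7.1% with p62. Without p62, 6 fell and 3 rose, where 8.34% of all genes fell and 13.3% rose. With p62, 8 fell and 1 rose, where 3.24% of all genes fell and 3.85% rose. HD and non-transgenic mice did not overlap for 16 members without p62 and 24 with p62, against 39.4% and 33.1% of all genes. Msmo1, Insig1, Srebf2 and Cyp46a1 fell and Abca1 rose in both, and 2.4% of all genes fell and 3.36% rose in both. Without p62 Msmo1 fell by 0.76 (SE 0.14, adjusted p = 0.00513), and with p62 it fell by 0.81 (SE 0.14, adjusted p = 0.00727). Abca1 rose by 0.58 (SE 0.089, adjusted p = 0.00235) without p62 and rose by 0.48 (SE 0.089, adjusted p = 0.00996) with p62. These 2 comparisons share no mouse, and 27 members were lower in both, 9 higher in both and 4 of opposite sign, against 42.8% and 38% of all genes lower and higher in both.

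**Figure D3:**
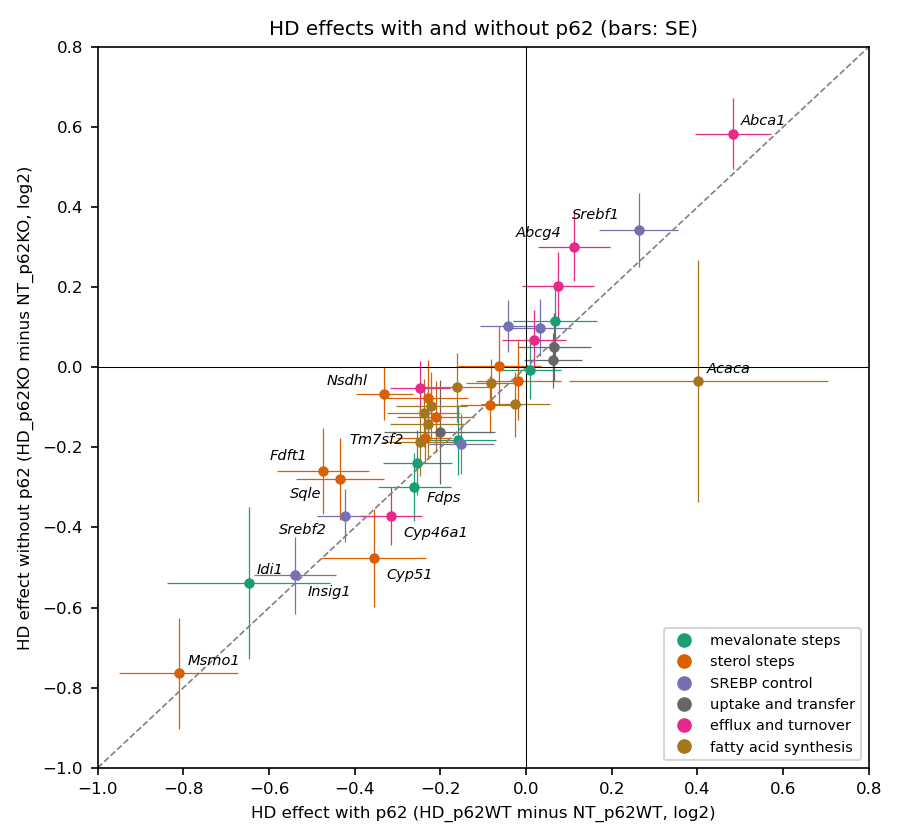
HD effect without p62 (vertical axis, HD_p62KO minus NT_p62KO) against the HD effect with p62 (horizontal axis, HD_p62WT minus NT_p62WT), both log2, for the 40 measured genes, with SE bars and a dashed line of equal effects. Msmo1 at -0.76 and -0.81 and Abca1 at 0.58 and 0.48 lie near the line, and Acaca, at -0.03 and 0.40, has the widest bars.

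Other members passed in 1 background. Without p62 these were Fdps (-0.30 ± 0.086, SE), Cyp51 (-0.48 ± 0.12), Srebf1 (0.34 ± 0.093) and Abcg4 (0.30 ± 0.085), and with p62 Fdft1 (-0.47 ± 0.11), Sqle (-0.43 ± 0.10), Tm7sf2 (-0.24 ± 0.064) and Nsdhl (-0.33 ± 0.067). The difference between the HD effects, which tests this directly, passed for 0 of the 40 members in limma and for 0% of all genes, with 1 member and 3.45% of all genes at an unadjusted p below 0.05. That member was Nsdhl, at -0.07 ± 0.067 without p62 and -0.33 ± 0.067 with p62, a difference of 0.27 ± 0.095 (SE; unadjusted p = 0.0163, adjusted p = 0.991). For Msmo1 the difference was 0.05 ± 0.20 with a 95% interval of -0.38 to 0.47, for Insig1 0.02 ± 0.14 (-0.28 to 0.31), for Srebf2 0.05 ± 0.094 (-0.15 to 0.26) and for Abca1 0.10 ± 0.13 (-0.17 to 0.37).

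Several of these calls were lost in fits with 1 mouse fewer. Among mice lacking p62 the count of 9 became 5 with HD_p62KO replicate 2 left out. Among mice with p62 it became 5 with HD_p62WT replicate 2 left out, and 4 with HD_p62WT replicate 3 or NT_p62WT replicate 3 left out. Over all 12 mice left out in turn, the counts ran from 5 to 11 in mice lacking p62 and from 4 to 11 in mice with p62. Msmo1, Insig1, Srebf2 and Abca1 kept their calls in both comparisons each time, and Cyp46a1 did so in mice lacking p62. In mice with p62, Cyp46a1 lost its call when any HD_p62WT mouse or NT_p62WT replicate 1 or 3 was left out (adjusted p = 0.0544 to 0.104). Fdft1 lost it when replicate 2 or 3 of HD_p62WT or NT_p62WT was left out (0.0557 to 0.0969), as did Sqle, which also lost it with NT_p62WT replicate 1 left out (0.062 to 0.0805). Nsdhl lost it with HD_p62WT replicate 3 or NT_p62WT replicate 1 or 3 left out (0.0537 to 0.0743). Tm7sf2 kept its call in 1 of the 12 fits, that leaving out NT_p62KO replicate 3 (0.0518 to 0.132 in the others). In mice lacking p62, Fdps lost its call with replicate 1 or 2 of HD_p62KO or NT_p62KO left out (0.0605 to 0.101) and Cyp51 with HD_p62KO replicate 2 left out (0.0721). Srebf1 lost it with HD_p62KO replicate 2 or 3 or NT_p62KO replicate 1 or 3 left out (0.0559 to 0.101). Abcg4 lost it with HD_p62KO replicate 2 or 3 or NT_p62KO replicate 2 left out (0.0748 to 0.0825). The differences kept their sign in all these fits: Tm7sf2 stayed at -0.25 to -0.22, Fdft1 at -0.47 to -0.38, Sqle at -0.46 to -0.35, Nsdhl at -0.34 to -0.27 and Cyp46a1 at -0.34 to -0.27. In mice lacking p62, Fdps stayed at -0.28 to -0.25, Cyp51 was at -0.46, Srebf1 stayed at 0.28 to 0.34 and Abcg4 at 0.24 to 0.30. For Tm7sf2, leaving out any HD_p62KO mouse or NT_p62KO replicate 1 or 2, which are not in its comparison, also ended the call.

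Loss of p62 was not accompanied by a detectable change of these genes. In limma 0 of 40 members passed for p62 loss in HD mice (HD_p62KO minus HD_p62WT) and 0 in non-transgenic mice (NT_p62KO minus NT_p62WT), where 0.0052% of all genes, Sqstm1 alone, passed in each, and 2 and 1 members had an unadjusted p below 0.05, against 2.88% and 3.32% of all genes. Groups did not overlap for 4 members in HD mice and 2 in non-transgenic mice, where the shares of all genes were 7.38% and 7.87%. At an unadjusted p below 0.05 these were, in HD mice, Nsdhl (0.23 ± 0.067, SE) and Pmvk (-0.20 ± 0.088), and, in non-transgenic mice, Scap (-0.16 ± 0.072). For Msmo1 the difference was 0.12 ± 0.14 in HD mice, with a 95% interval of -0.18 to 0.42, and 0.07 ± 0.14 in non-transgenic mice (-0.23 to 0.38). For Insig1 it was 0.08 ± 0.096 (-0.13 to 0.29) in HD and 0.06 ± 0.096 (-0.15 to 0.27) in non-transgenic mice, and for Abca1 0.09 ± 0.089 (-0.10 to 0.29) and -0.01 ± 0.089 (-0.20 to 0.19).

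Srebf1 is the member nearest to the knocked-out gene, lying 9.999 Mb from Sqstm1 on chromosome 11. It differed by 0.06 ± 0.093 (SE; 95% interval -0.14 to 0.26) with p62 loss in HD mice and by -0.02 ± 0.093 (-0.22 to 0.18) in non-transgenic mice. Pmvk was lower in the mean of both p62 comparisons (-0.19 ± 0.062, SE), without passing (adjusted p = 1.0), where 0.0104% of all genes passed. Each HD mouse without p62, at 7.58 to 7.78, was below each HD mouse with p62, at 7.82 to 8.00, and the non-transgenic groups overlapped. Of all 40 members the largest negative difference was that of Acaca in HD mice, at -0.33 ± 0.30, whose interval ran from -0.98 to 0.33.

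**Figure D4:**
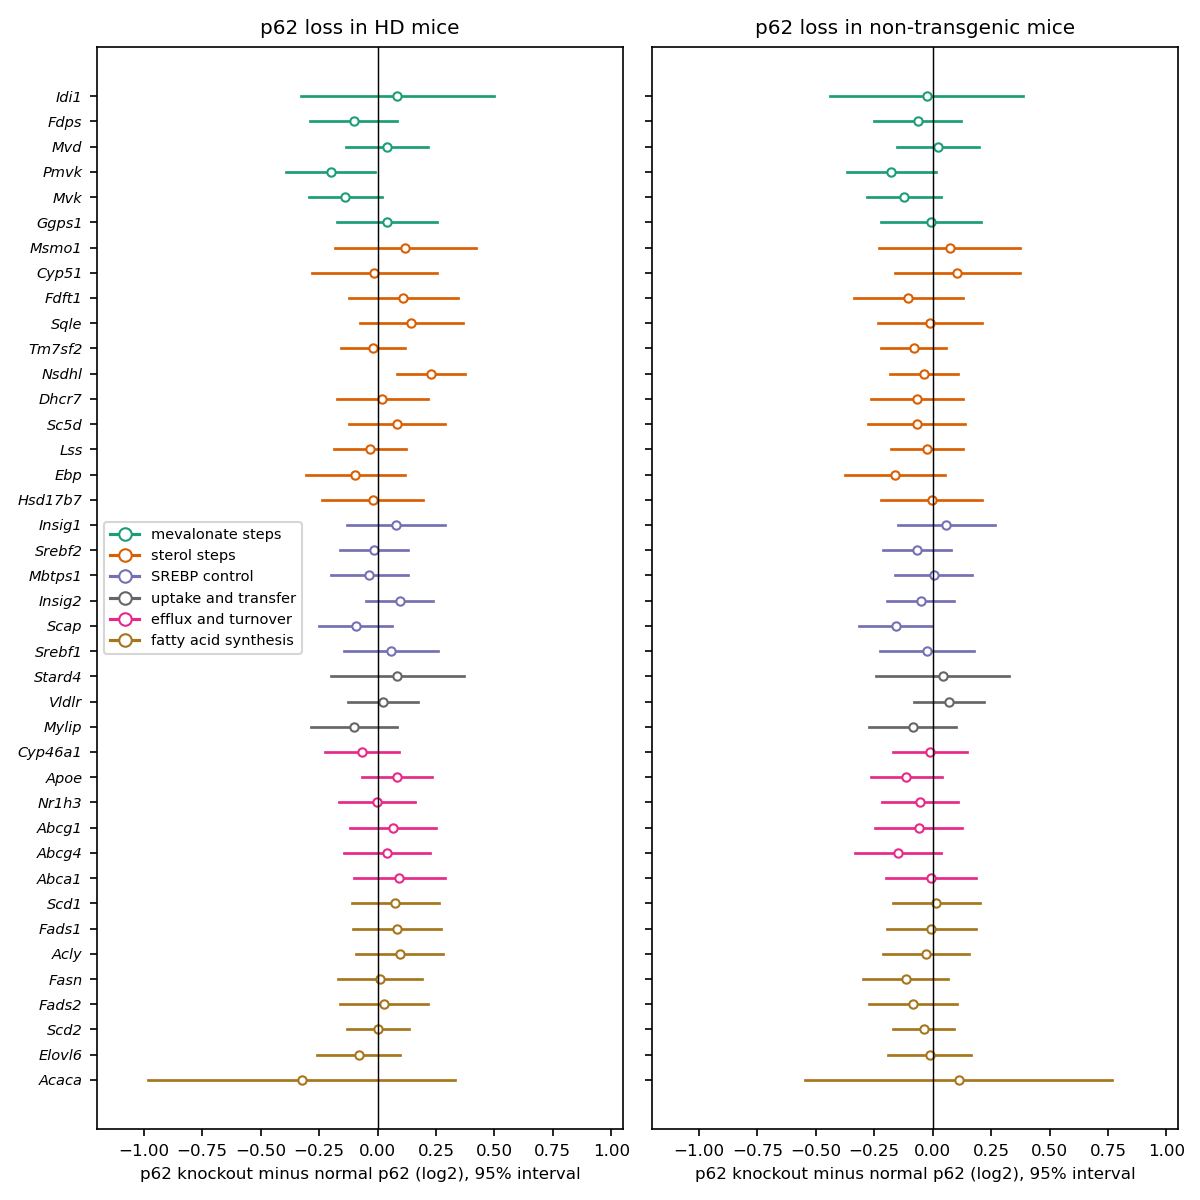
Difference with p62 loss (knockout minus normal p62, log2) and its 95% interval for the 40 measured genes, in HD mice on the left and in non-transgenic mice on the right. No point passed the threshold, and intervals include 0 for 38 genes in HD mice and 39 in non-transgenic mice.

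Within each group, 1 mouse was low across the pathway. HD_p62KO replicate 1 was the lowest of its group for 10 of the 17 synthesis enzymes and HD_p62WT replicate 2 for 12, while NT_p62KO replicate 3 was the lowest for 13 and NT_p62WT replicate 1 for 16. Over all genes these mice were the lowest of their group for 32% to 41.2%. The mean deviation of the 17 enzymes from their 12-mouse mean was -0.18, -0.11 and -0.04 in HD_p62KO mice and -0.05, -0.24 and -0.09 in HD_p62WT mice, against 0.14, 0.13 and 0.01 in NT_p62KO mice and 0.03, 0.18 and 0.21 in NT_p62WT mice. The HD mice were all below 0 and the non-transgenic mice all above it. The same 4 mice had the smallest array SD of their groups. It was 1.66 in HD_p62KO replicate 1, 1.64 in HD_p62WT replicate 2, 1.58 in NT_p62KO replicate 3 and 1.65 in NT_p62WT replicate 1. In NT_p62WT mice replicates 1 and 3 were nearly level, at 1.647 and 1.648, and replicate 3 had the highest deviation of all mice. Without the 3 arrays of smallest SD, which did not include HD_p62KO replicate 1, 16 members fell and 2 rose for the mean HD effect. Mbtps1, Apoe, Acly, Fads1 and Abcg4 were not called without those arrays (adjusted p = 0.0502 to 0.118). With array SD as a covariate 16 fell and 1 rose, and Mvd, Nsdhl, Srebf1, Abcg4 and Apoe were not called (0.0541 to 0.165). Both totals of members that fell include members that did not pass in the main fit. Array SD ran from 1.64 to 1.73 in HD mice and from 1.58 to 1.67 in non-transgenic mice. The covariate is thus partly confounded with HD status. With it, 2541 of the 19248 genes were called for the mean HD effect, against 6728 without it.

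**Figure D5:**
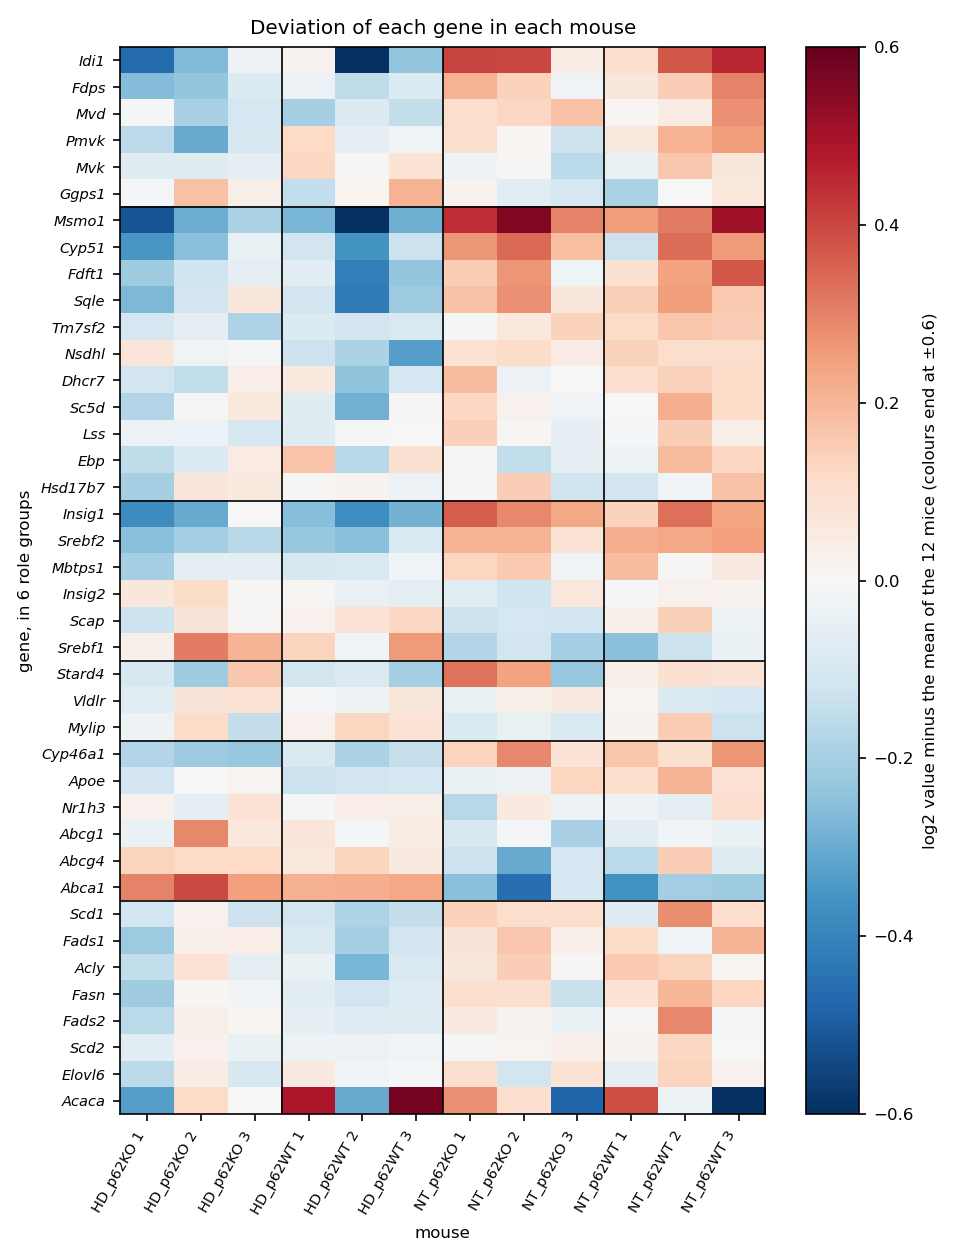
Log2 value minus the mean of the 12 mice for each of the 40 measured genes (rows, in 6 role groups) and each mouse (columns), with colours ending at ±0.6. Msmo1, Insig1 and Srebf2 are below their mean in all HD mice except Insig1 in HD_p62KO replicate 3, which is near it, and Abca1 is above its mean in all HD mice.

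Markers of several cell types moved with HD status. Of 14 measured projection neuron markers 13 fell and 1 rose for the mean HD effect. Their summed linear signal was 23150 to 24120 in HD_p62KO mice and 25144 to 25270 in HD_p62WT mice, against 36494 to 41617 in NT_p62KO mice and 34653 to 39023 in NT_p62WT mice. Of 14 astrocyte markers 5 fell and 1 rose, with sums of 15834 to 17474 in HD_p62KO mice and 16432 to 16608 in HD_p62WT mice, against 17634 to 18483 in NT_p62KO mice and 18044 to 19526 in NT_p62WT mice. Of 13 oligodendrocyte markers 6 fell and 0 rose, with sums of 27104 to 30650 in HD_p62KO mice and 26818 to 30918 in HD_p62WT mice, against 29803 to 32170 in NT_p62KO mice and 30816 to 33087 in NT_p62WT mice. No detection calls were used here, so that no marker could be called at 0. Among the other marker lists, 1 of 10 microglial, 1 of 11 choroid plexus, 0 of 10 endothelial and mural and 0 of 9 cortical neuron markers rose, and 0, 0, 2 and 2 fell. The cortical neuron markers had a median mean HD effect of -0.30, against -0.14 for both the astrocyte and the oligodendrocyte markers, and sums of 3283 to 4496 in HD_p62KO mice and 3418 to 3853 in HD_p62WT mice, against 2972 to 5358 in NT_p62KO mice and 3830 to 5569 in NT_p62WT mice. HD_p62WT replicate 2, NT_p62KO replicate 3 and NT_p62WT replicate 1, low for the synthesis enzymes, had the lowest cortical sum of their groups. In NT_p62WT mice replicates 1 and 2 were nearly level, at 3830 and 3838. In HD_p62KO mice replicate 2 had the lowest sum, not replicate 1. The choroid plexus sum varied most, from 1478 to 8281 in HD_p62KO mice and from 1495 to 5605 in HD_p62WT mice, against 4964 to 5621 in NT_p62KO mice and 1561 to 2300 in NT_p62WT mice. With p62 loss in non-transgenic mice all 11 choroid plexus markers were higher, with a median of 0.55, and 0 passed. Groups did not overlap for 10 of them, against 7.87% of all genes. With p62 loss in HD mice all 11 were also higher, with a median of 0.31, and groups overlapped for each. The part of these cell types in the cholesterol results was not tested.

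Other genes of sterol and lipid handling moved in both directions. Of 45 measured genes of a second list, 11 rose, 9 fell and 25 did not pass for the mean HD effect, with a median of 0.03, against 35% called over all genes. The genes named next are those of the list with the smallest p in limma. Lcat, the cholesterol-esterifying enzyme of lipoprotein particles, fell by 0.43 (SE 0.049, adjusted p = 1.49e-04), and the lipid transfer gene Stard10 fell by 0.47 (SE 0.054, adjusted p = 1.50e-04). Apod, a lipocalin that carries small lipids, rose by 0.36 (SE 0.048, adjusted p = 3.94e-04). Stard5, a sterol transfer protein of the same family as Stard4, rose by 0.46 (SE 0.082, adjusted p = 0.00185), and Erlin2, an endoplasmic reticulum protein of sterol-regulated degradation, rose by 0.31 (SE 0.059, adjusted p = 0.00272).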

How the data were processed

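From each snap-frozen striatum 100 ng of total RNA was amplified and hybridised to an Affymetrix array, per the labels' protocols. The authors deposited log2 values per probe set, which their processing notes credit to RMA. RMA settings and detection calls were not used here, and RMA removes any shift common to all genes. Of 24055 probe sets 19942 had 1 gene symbol, 1225 had several and 2888 were not named here. The brightest probe set per gene was kept, leaving 19248 genes.

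limma 3.58.1 in R 4.3.3 fitted 1 mean per group to the 12 arrays (8 residual and 4.14 prior degrees of freedom), with no filter on low values. Groups and replicate numbers came from the titles, which call the samples biological replicates, and p-values reflect the variation among these mice. On simulated data for the mean HD effect (19248 genes, 200 changed), recovery was 83 of 100 for changes of 0.5 and 100 of 100 for changes of 1, with 12 false calls. For the HD effect with p62 it was 60 of 100 and 94 of 100, with 9 false calls, and for p62 loss in HD mice 65 of 100 and 95 of 100, with 5 false calls. For the difference of the HD effects it was 19 of 100 and 82 of 100, with 5 false calls. Each simulation held 200 changed genes, with values drawn independently for each gene. In the data 1 gene was called for p62 loss in HD mice and 0 for the difference of the HD effects. With so few calls the adjustment asks for a smaller unadjusted p, so these recoveries do not carry over to those comparisons. Values in every mouse are given for members past the threshold in any comparison and for the brightest member of each role that passed nowhere. Members, lists and tests were chosen with earlier results of these data known. Start-site windows and gene positions are from RefSeq (GRCm38.p6). Alternatives covered the replicate block, normalization, filters, probe sets, variance models, array weights, array SD, thresholds and leaving out mice.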

Additional observations from a re-analysis of the deposited data

How the results depend on the processing

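The 38 results of single members past the threshold (18 in the separate HD effects, 20 in the mean) were recomputed under up to 24 alternatives, giving 892 values, of which 790 kept direction and call, 102 lost the call and 0 changed sign. The 9 members called for the HD effect without p62 became 5 at an adjusted p below 0.01, 15 below 0.1, 16 after quantile normalization, 17 with array weights and 5 to 11 with 1 mouse left out, and the median of the members, -0.09, became -0.16 with array SD as a covariate, -0.15 after quantile normalization, -0.05 without HD_p62KO replicate 1 and -0.06 without NT_p62KO replicate 1. The 9 called for the HD effect with p62 became 4 at an adjusted p below 0.01, 15 below 0.1, 16 after quantile normalization, 16 with array weights, 15 with array SD as a covariate and 4 to 11 with 1 mouse left out. The cause of these shifts was not tested. The count for the mean HD effect, 20, stayed within 1.5 times of itself, and 0 members were called for p62 loss or for the difference of the HD effects, under each alternative run. With the replicate number as a block, 5 members were called for the HD effect with p62 and 17 for the mean HD effect. Deviations of same-numbered mice correlated at -0.34 to 0.21, with 4 of 18 pairs over 0.1. With so few mice per group, these correlations cannot show whether same-numbered mice shared anything beyond the number.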

Other observations

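Acaca, the acetyl-CoA carboxylase that commits acetyl-CoA to fatty acids, varied between mice of a group more than any other member. It was also the dimmest of the 40 measured members, with a mean of 7.02, at the 30.9th percentile of brightness. Its log2 values were 6.69, 7.14 and 7.03 in HD_p62KO mice and 7.52, 6.72 and 7.60 in HD_p62WT mice, against 7.30, 7.12 and 6.54 in NT_p62KO mice and 7.41, 6.99 and 6.23 in NT_p62WT mice. The SD within groups was 0.449, at the 99.3rd percentile of all genes, against a median of 0.118. Idi1 followed at 0.275 and Msmo1 at 0.193, while Srebf2, at 0.0596, and Tm7sf2, at 0.0518, were among the steadiest members. The 95% interval of Acaca for the mean HD effect ran from -0.28 to 0.65.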
